A study of Oryza brachyantha and Oryza sativa Japonica Group and Oryza glaberrima with 38 samples.

Results

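Short isolated islands of histone H3 lysine 9 dimethylation (H3K9me2) in cultivated rice, Oryza sativa Japonica Group, are described here with the 3 other histone marks on and beside them. An island was selected on measured values: it is a seedling replicate 1 H3K9me2 peak interval shorter than 2 kb, with no other interval of that list within 5 kb on either side, that overlapped an H3K9me2 interval of seedling replicate 2 and of tillering plants. On chromosomes 1 to 12 this rule found 1381 of the 28275 intervals of seedling replicate 1, which is also 1381 of the 190087 intervals in the 6 rice lists together.

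The series profiled histone marks by chromatin immunoprecipitation and sequencing (ChIP-seq) in above-ground tissue of Oryza species and 2 other grasses, and 6 of its peak lists are from O. sativa. Seedling shoots, 2 weeks after germination, gave 2 H3K9me2 libraries, the first called against input DNA and the second against a histone H3 precipitation. They also gave 1 H3K27me and 1 H3K56Ac library, each against its own input. Aerial tissue at tillering, 60 days after germination, gave 1 H3K9me2 and 1 H3K4me3 library, which share an input. All were greenhouse plants with no treatment named. Nothing in the labels shows that the 2 seedling H3K9me2 libraries came from separate plants. Sequencing depth is not in the peak lists and is unknown here. H3K27me and H3K56Ac were therefore read at the seedling stage only and H3K4me3 at tillering only, so stage and mark cannot be told apart for H3K4me3.

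H3K9me2 in plants marks silent chromatin and is known mainly from transposable elements and repeats, where it is maintained together with DNA methylation outside CG sites. It is densest around centromeres and also occurs in patches along gene-rich arms. H3K4me3, a methylation found at the start of transcribed genes, and H3K56Ac, an acetylation in the core of H3, mark active genes. Methylation of lysine 27 has different roles by its degree: the monomethyl form is known from constitutive heterochromatin and the trimethyl form from Polycomb-silenced genes. The labels give H3K27me without a number of methyl groups, so the degree is not stated here.

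The islands were small, weakly enriched intervals. Their median length was 765 bp (quartiles 450 and 1181 bp, range 151 to 1995 bp), and the nearest other interval of the list lay a median of 13743 bp away (range 5005 to 154009 bp). Fold enrichment over the control and −log10 q are the authors' values for each peak, used here to describe and rank peaks within a list. The median fold was 2.55 in seedling replicate 1, against 2.64 over all its intervals, and the median −log10 q was 1.89 against 2.09. As the rule used H3K9me2, these are descriptions with no test.

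The H3K9me2 interval met in the other lists was usually longer. Its median length was 1042 bp in seedling replicate 2 and 1278 bp at tillering, and it was longer than the island in 66.1% and 76.2% of cases. It covered a median of 89.4% of the island in replicate 2 and 97.4% at tillering. The median fold was 2.13 in replicate 2, against 2.18 over all intervals of that list, and 1.29 at tillering, against 1.30. At tillering the median −log10 q was 1.26, against 1.29 over all intervals, and the lowest was 0.560. Of the 1381 islands, 743 (53.8%) met an interval that was short and isolated by the same limits in replicate 2, 613 (44.4%) at tillering and 497 (35.99%) in both.

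**Figure D1:**
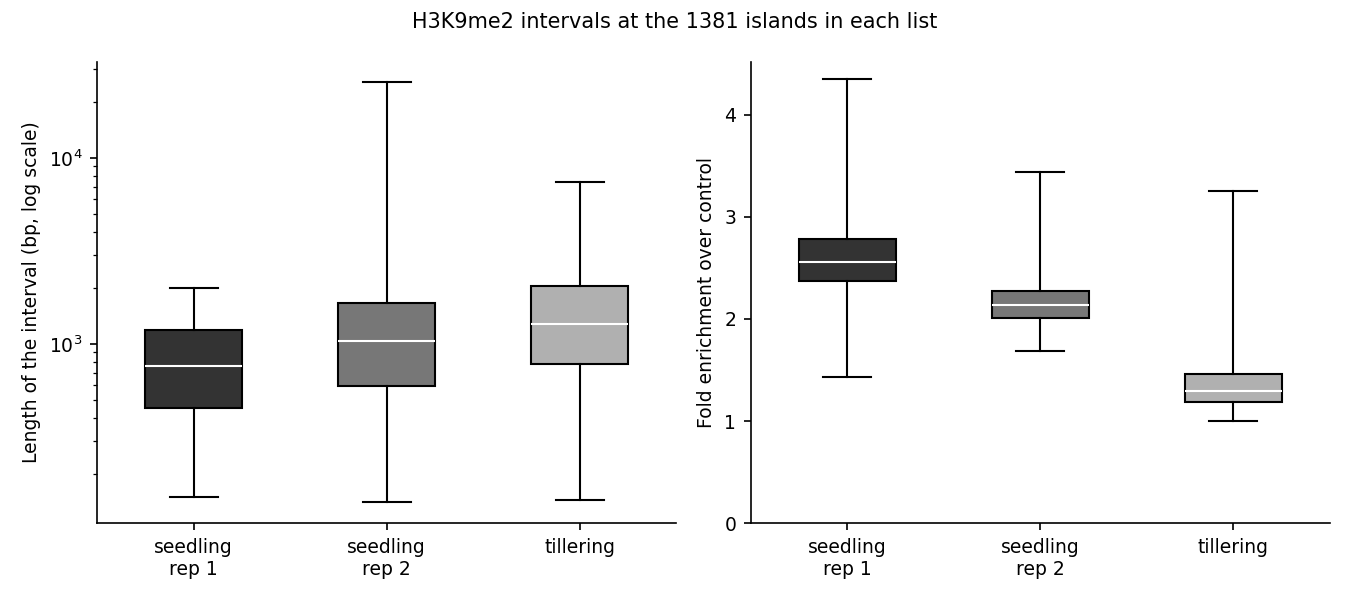
Length of the H3K9me2 interval (left, bp, log scale) and its fold enrichment over the control (right) at the 1381 islands in seedling replicate 1, seedling replicate 2 and tillering. Boxes are quartiles with the median as a white line, and whiskers reach the lowest and highest value; the medians of length are 765, 1042 and 1278 bp, and those of fold are 2.55, 2.13 and 1.29. Over all intervals of each list the median fold is 2.64, 2.18 and 1.30.

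Requiring overlap with both other lists kept 1381 of 2952 short isolated intervals (46.8%). A further 253 overlapped replicate 2 only, 463 tillering only, and 855 neither. The 855 were shorter, with a median of 295 bp. H3K27me lay on 53.8% of them and H3K56Ac and H3K4me3 lay on 5.61% and 5.15%. Within 2 kb, H3K56Ac lay beside 30.3% of the 855 and H3K4me3 beside 26.3%, near the 34.4% and 29.8% of the islands. For the 253 these shares were 25.3% and 23.7%, and for the 463 they were 29.4% and 26.1%. Active marks beside short isolated intervals were thus not particular to those found in all 3 lists. The other shares of the islands are given below.

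Intervals just inside and just outside the limits of the rule are given as a description. The 60 islands of 1800 bp or more had H3K27me on 93.3% of them, and the 66 isolated intervals from 2000 to 2200 bp had it on 93.9%. H3K56Ac lay within 2 kb of 41.7% and 31.8% of these. The 133 islands with a neighbour 5000 to 6000 bp away had H3K56Ac within 2 kb in 36.1% of cases, and the 173 intervals with a neighbour 4000 to 5000 bp away in 26.6%. The intervals nearest to the length limit were chr9:8285721-8287715 (1995 bp, inside) and chr2:18862343-18864332 (1990 bp, inside), and chr6:1031390-1033391 (2002 bp) and chr3:14160414-14162423 (2010 bp) outside. Coordinates are of the tigr6 rice build, counted from 1. H3K27me covered 12.7%, 100%, 14.6% and 100% of the 4.

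The islands lay on all 12 chromosomes, from 83 on chromosome 9 to 162 on chromosome 2. Their density was 2.86 per Mb on chromosome 4 and 4.51 per Mb on chromosome 2, with a mean of 3.74 ± 0.497 (SD, n = 12 chromosomes). Each chromosome has a middle segment rich in tillering H3K9me2, which together make up 25.4% of the length. These segments held 283 islands (20.5%, 2.99 per Mb) and the arms 1098 (79.5%, 3.96 per Mb). Over all 28275 intervals the segments held 133 per Mb and the arms 56.4 per Mb. The lower density of islands in the segments follows in part from the isolation limit itself, so no test is given.

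H3K27me covered most islands. It overlapped 1156 of 1381 by at least 1 bp, or 83.7% (exact 95% binomial interval 81.7 to 85.6%, which covers counting error only), where 88.7% of all 28275 seedling replicate 1 intervals had it. It covered 66.9% of island base pairs, below the 82.6% over all seedling replicate 1 intervals and above the 24.4% of the chromosomes that H3K27me peaks covered. Islands covered over at least 50% of their length numbered 946 (68.5%), and 594 (43.01%) lay wholly inside an H3K27me interval. Neither share is given here for all intervals. In the 2 kb on either side, H3K27me lay beside 1247 islands (90.3%), against 95.6% of all intervals, and on both sides of 879 (63.6%), against 80.1% of all intervals. With the 50% of H3K27me peaks of lowest −log10 q left out, 47.6% of islands were overlapped.

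Where both marks were present, the H3K27me interval was commonly the longer. Of the 1156 islands with H3K27me, the interval of largest overlap contained the island in 594 (51.4%), crossed 1 edge in 465 (40.2%) and lay inside the island in 97 (8.39%). Its median length was 1500 bp, it was longer than the island in 76.3% and it reached 2 kb in 35.2%. Its median fold was 2.39, while the median of all H3K27me intervals was 2.35. No H3K27me lay within 5 kb of 80 islands (5.79%), a share not given here for all intervals.

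H3K56Ac and H3K4me3 were nearly absent from the islands, as they were from H3K9me2 intervals in general. H3K56Ac overlapped 4 islands (0.290%, exact interval 0.0790 to 0.740%), against 0.803% of all intervals, and covered 0.0466% of island base pairs, beside 0.0778% over all intervals and 5.60% of the chromosomes. H3K4me3 overlapped 11 islands (0.797%, 0.398 to 1.42%), against 1.27% of all intervals, and covered 0.114% of island base pairs, beside 0.120% over all intervals and 4.15% of the chromosomes. The H3K4me3 share of base pairs is thus at the background of H3K9me2 intervals. The 4 and the 11 shared 2 islands, so 13 carried either mark, and 8 of the 13 carried H3K27me as well. The lists differ in read handling: by their peak names, reads with several matching sites were given a random one of them for seedling H3K9me2 and H3K27me and were dropped for H3K56Ac, so a repeat can carry the former peaks and not the latter. How far this accounts for the low overlap was not tested.

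Active marks stood beside the islands more than on them. H3K56Ac lay within 2 kb of 475 islands (34.4%, 31.9 to 37.0%), where 16.6% of all intervals had it, and H3K4me3 within 2 kb of 411 (29.8%, 27.4 to 32.2%), where 13.7% of all intervals had it. They were mostly on 1 side: 74 islands (5.36%) had H3K56Ac on both sides, where 1.22% of all intervals did, and 48 (3.48%) had H3K4me3 on both, where 0.891% of all intervals did. The median distance from an island to the nearest H3K56Ac peak was 3000 bp and to the nearest H3K4me3 peak 3481 bp. Of the base pairs within 2 kb of islands, H3K56Ac covered 4.96% and H3K4me3 4.05%. Beside all intervals they covered 2.23% and 1.56%, and of the chromosomes 5.60% and 4.15%. Active marks beside islands were thus above those beside H3K9me2 intervals in general, but not above the chromosome-wide share.

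The active marks beside the islands went together. Both lay within 2 kb of 376 islands (27.2%), which is 79.2% of the islands with H3K56Ac there and 91.5% of those with H3K4me3, and in all 376 a side held both. Neither was within 2 kb of 871 islands (63.1%). Shares of both or neither over all intervals are not given here, so these counts are not shown to be particular to islands. The 581 H3K56Ac peaks on or within 2 kb of an island had a median fold of 6.74, against 4.63 for the other 36848, and the 493 H3K4me3 peaks had 4.13, against 3.72 for the other 27735. These medians are given as a description. In the 401 islands with H3K56Ac on 1 side, H3K27me lay on that side in 64.6% and on the other side in 77.8%.

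**Figure D2:**
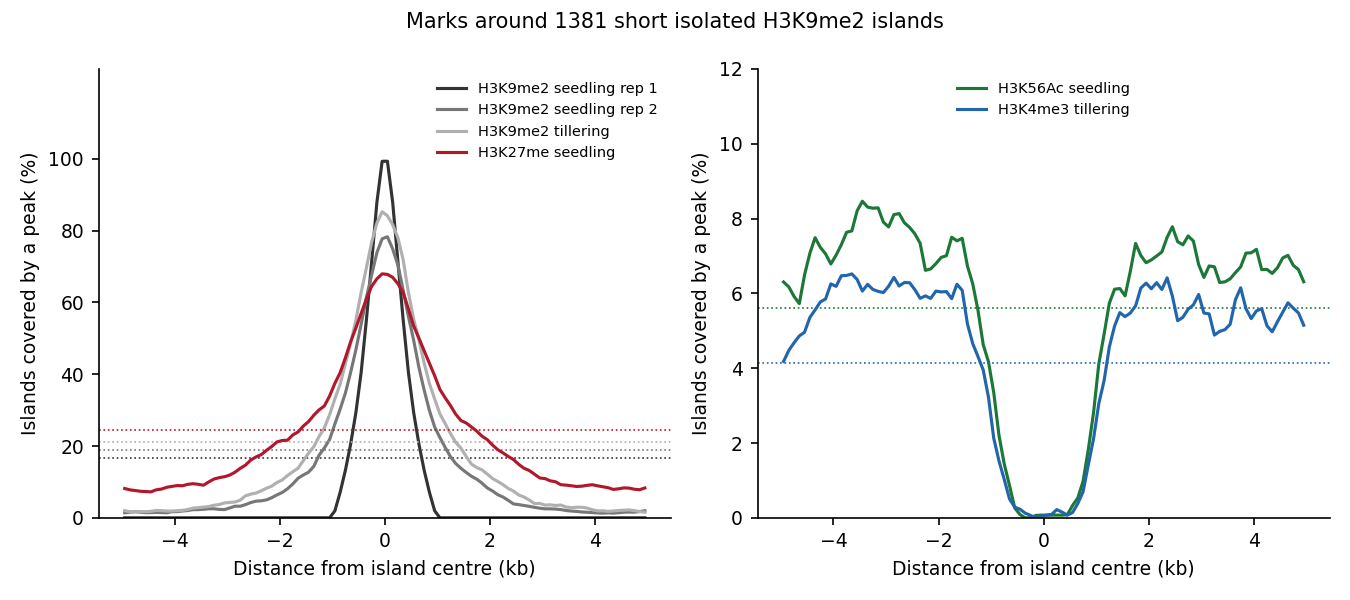
Percent of the 1381 islands covered by a peak of each list in 100 bp bins against distance from the island centre (kb). The left panel shows the 3 H3K9me2 lists and H3K27me, the right panel H3K56Ac and H3K4me3, and dotted lines are each list's coverage of the 12 chromosomes; H3K27me stands above its line (24.4%) near the centre and below it at 5 kb, while both active marks are near 0 at the centre and above their lines (5.60% and 4.15%) in the bins more than 1400 bp from it. The lines include base pairs under seedling replicate 1 H3K9me2, which the rule keeps out of the 5 kb beside an island.

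Measured from the island edge, H3K27me fell off over about 2 kb and the active marks rose over about 1 kb. H3K27me covered 58.8 ± 4.38% of the first 100 bp outside the island (mean ± SD over 12 chromosomes), 36.9 ± 3.76% at 500 bp, 26.1 ± 3.35% at 1000 bp and 15.7 ± 3.89% at 2000 bp, and it passed below its chromosome-wide 24.4% from 1200 bp. At 4900 bp it was 8.74 ± 1.89%. H3K56Ac covered 0.195 ± 0.305% of the first 100 bp, 2.87 ± 1.01% at 500 bp and 6.93 ± 1.34% at 1000 bp. It passed its chromosome-wide 5.60% from 800 bp, was highest at 8.06% at 2800 bp and was 5.77 ± 1.48% at 4900 bp. H3K4me3 likewise passed its 4.15% from 800 bp and was highest at 6.64% at 2600 bp. H3K9me2 of seedling replicate 2 and of tillering also ran past the island edges, with 56.01 ± 2.56% and 63.9 ± 2.87% in the first 100 bp and 4.40 ± 1.12% and 6.96 ± 1.86% at 2000 bp. The chromosome-wide shares of the marks include the 16.7% of base pairs under seedling replicate 1 H3K9me2. The rule keeps such base pairs out of the 5 kb beside an island. H3K27me covered 82.6% of them, H3K56Ac 0.0778% and H3K4me3 0.120%. The chromosome-wide shares are thus not a like background, and passing them follows in part from the rule.

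The islands were compared with 12070 clustered short intervals, which are under 2 kb and overlap both other H3K9me2 lists but have a neighbour within 5 kb. This asks whether isolation goes with the other marks, none of which the rule used. Marks within 2 kb are, however, scored in the same flanks that the rule clears of seedling replicate 1 H3K9me2. Differences within 2 kb are thus in part set by the rule, and their p-values do not separate this part. Coverage of the flanks with those base pairs left out is given below, without a test, and is also in part set by the rule. Differences were taken within each chromosome and tested with an exact two-sided sign-flip permutation test over the 12 chromosomes, Benjamini-Hochberg adjusted over the 14 differences tested. The smallest p this design allows is 0.000488 before adjustment. The test measures the spread between chromosomes within these libraries, not between plants or libraries.

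Islands had active marks beside them more often, and H3K27me less often, than clustered short intervals. H3K56Ac lay within 2 kb of 34.0 ± 4.58% of islands per chromosome (SD, n = 12 chromosomes) and of 12.2 ± 1.24% of clustered short intervals. The difference was 21.8 ± 3.81 percentage points and the exact permutation test gave an adjusted p of 0.00137. The island values ran from 24.4 to 39.5% and the clustered values from 10.1 to 14.1%, so they did not overlap. H3K4me3 lay within 2 kb of 29.4 ± 4.76% and 10.5 ± 1.32%, a difference of 18.9 ± 4.24 points, with the same adjusted p in the exact test and again no overlap. Both marks were higher beside islands on 12 of 12 chromosomes. With H3K9me2 intervals limited to −log10 q of at least 2, the differences were smaller. They were 9.70 points for H3K56Ac and 9.24 points for H3K4me3 (exact permutation test, adjusted p = 0.00171 for both). That setting gave 1651 islands in place of 1381, so it also changed which intervals counted as isolated. Among the 1381 islands, H3K56Ac lay within 2 kb of 29.6% of the 345 with the lowest −log10 q. For the 346 with the highest it was 38.7%. H3K4me3 was at 23.8% and 35.0% in the same order. These shares are a description with no test.

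H3K27me lay on 83.7 ± 3.13% of islands and 89.4 ± 1.55% of clustered short intervals. It was lower on islands on 12 of 12 chromosomes, by 5.65 ± 3.24 points (exact permutation test, adjusted p = 0.00137), although the 2 ranges, 78.2 to 88.2% and 86.5 to 91.5%, overlapped. Within 2 kb it was also lower on 12 of 12 chromosomes, at 90.5 ± 1.82% against 97.1 ± 1.07% (exact permutation test, adjusted p = 0.00137). For marks on the interval itself, H3K56Ac was at 0.331 ± 0.495% and 0.183 ± 0.123%, and H3K4me3 at 0.881 ± 0.902% and 0.711 ± 0.375%. Neither passed the exact permutation test (adjusted p = 0.435 and 0.623). With islands drawn from seedling replicate 2 in place of replicate 1, 0 of 1745 islands overlapped H3K56Ac, which allows a share of up to 0.172% (3 counts), beside 0.0713% of clustered short intervals. With no island overlapped on any chromosome, that setting gives no usable test.

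The rule leaves the flanks of islands free of seedling replicate 1 H3K9me2, while it covered 24.8 ± 0.965% of the base pairs within 2 kb of clustered short intervals. With those base pairs left out, H3K56Ac covered 4.96 ± 0.848% of island flanks and 2.07 ± 0.284% of clustered flanks. H3K4me3 covered 4.00 ± 0.824% and 1.47 ± 0.215%. Both were higher beside islands on 12 of 12 chromosomes. H3K27me covered 30.9 ± 2.40% of island flanks and 50.1 ± 2.18% of clustered flanks outside H3K9me2, and was higher beside islands on 0 of 12 chromosomes. Leaving out those base pairs does not remove the effect of the rule. Clustered short intervals had their nearest neighbour a median of 837 bp away, so the flank base pairs kept still lie close to another H3K9me2 interval.

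**Figure D3:**
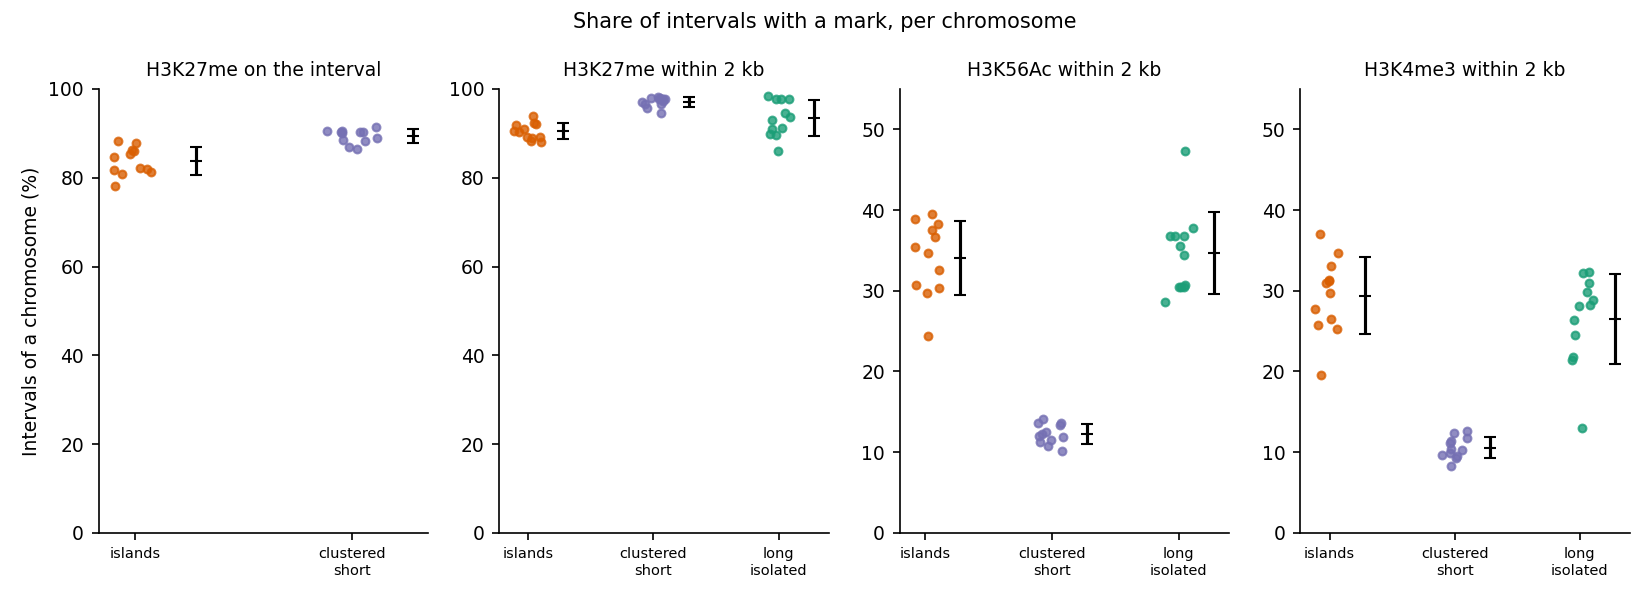
Share of intervals with a mark on each of the 12 chromosomes (points, %) for islands, clustered short and long isolated intervals, with the mean ± SD over chromosomes as a black bar; the 2 panels of active marks have an axis to 55%. Island values for H3K56Ac (24.4 to 39.5%) lie above all values of clustered short intervals (10.1 to 14.1%) and among those of long isolated intervals.

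Length was examined against 727 long isolated intervals, of 2 kb or more, which are isolated by 5 kb and overlap both other lists. They were also stronger calls than the islands, with a median −log10 q of 2.36 against 1.89 and a median fold of 2.77 against 2.55. Length and strength of the call are thus not told apart in this comparison. H3K27me covered 66.6 ± 3.80% of island base pairs and 85.5 ± 3.02% of long isolated base pairs. It was lower on islands on 12 of 12 chromosomes, by 18.9 ± 5.56 points (exact permutation test, adjusted p = 0.00137), and the ranges did not overlap. Without seedling replicate 1 the difference was -11.0 points. Within 2 kb, H3K27me lay beside 90.5 ± 1.82% of islands and 93.4 ± 4.00% of long isolated intervals, lower on 10 of 12 chromosomes (exact permutation test, adjusted p = 0.0391). That call was lost in 8 of 15 alternative settings, among them without seedling replicate 1 (-2.24 points, adjusted p = 0.0605 in the exact test) and without replicate 2 (-2.81 points, adjusted p = 0.0791 in the exact test).

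No difference in active marks between islands and long isolated intervals passed the test as reported, although some passed under an alternative setting. H3K56Ac lay within 2 kb of 34.0 ± 4.58% and 34.7 ± 5.13%, a difference of -0.633 ± 5.85 points (exact permutation test, adjusted p = 0.727). H3K4me3 lay within 2 kb of 29.4 ± 4.76% and 26.5 ± 5.57%, a difference of 2.93 ± 7.10 points (exact permutation test, adjusted p = 0.291). The per-chromosome differences ran from -12.5 to 8.74 points for H3K56Ac and from -6.95 to 16.7 points for H3K4me3. On the intervals themselves the base pairs covered were 0.0529% and 0.0278% for H3K56Ac and 0.121% and 0.106% for H3K4me3 (exact permutation tests, adjusted p = 0.623 and 0.727). The H3K4me3 difference within the flank passed for lengths under 1 kb (3.55 points, adjusted p = 0.0273 in the exact test) and with a flank of 1 kb (3.70 points, adjusted p = 0.0422 in the exact test). With H3K9me2 −log10 q of at least 2, H3K4me3 base pairs (0.144 points, adjusted p = 0.0154 in the exact test) and H3K56Ac within 2 kb (-3.00 points, adjusted p = 0.0376 in the exact test) passed.

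**Figure D4:**
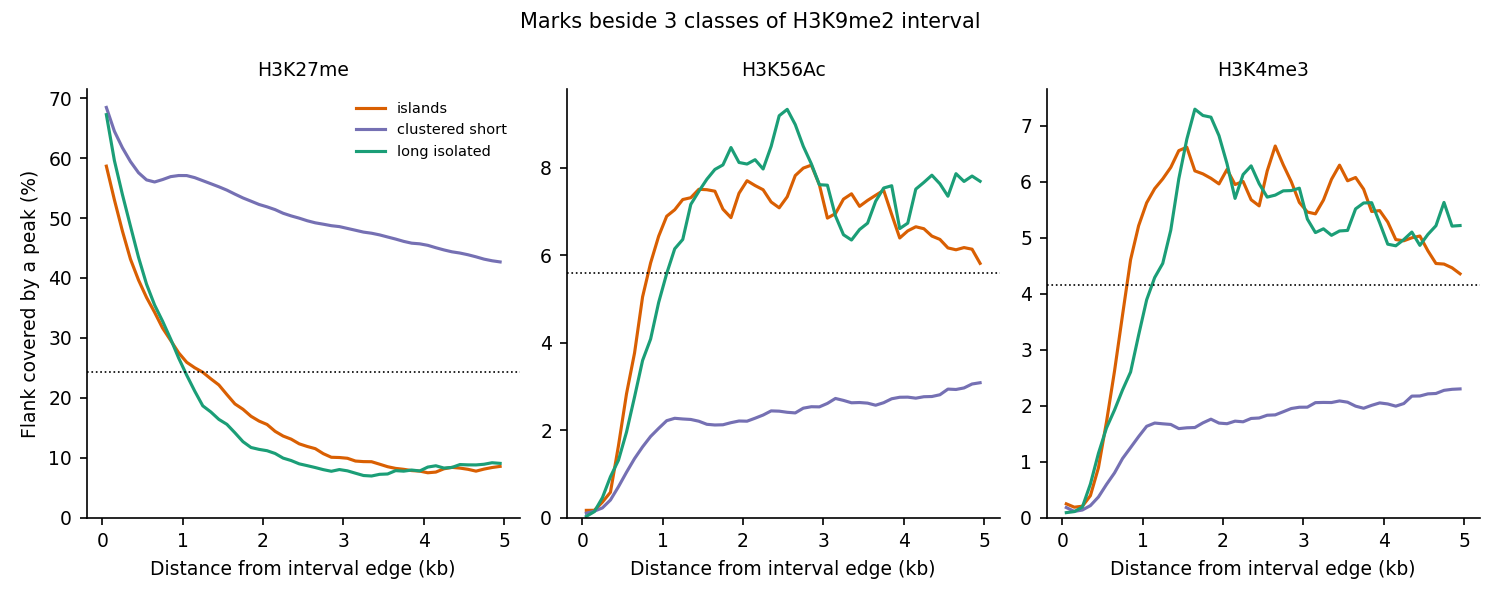
Percent of flank base pairs covered by H3K27me, H3K56Ac and H3K4me3 in 100 bp bins against distance from the interval edge (kb), both sides pooled, for islands, clustered short and long isolated intervals; dotted lines are chromosome-wide coverage. Beside clustered short intervals H3K27me stays above its line to 5 kb (42.7% in the last bin) and the active marks stay below theirs, while beside islands and long isolated intervals the curves cross their lines between 800 and 1200 bp. The lines include base pairs under seedling replicate 1 H3K9me2, while the flanks of islands and long isolated intervals hold none.

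Among themselves, the islands differed in H3K27me by length. It lay on 76.4% of the 398 islands under 500 bp, 84.2% of the 512 from 500 to 1000 bp, 88.4% of the 292 from 1000 to 1500 bp and 91.1% of the 179 longer ones. Overlap by 1 bp is easier for a longer interval, and the share of base pairs covered was 66.9%, 67.5%, 67.7% and 65.2% in the same order. H3K56Ac within 2 kb was at 34.7%, 33.8%, 32.9% and 38.0%. Distance to the nearest H3K9me2 interval gave no order for H3K27me, with 86.1%, 83.5%, 80.3% and 83.4% from the closest to the most distant group. The 157 islands with a gap of 40 kb or more had H3K56Ac within 2 kb in 43.3%, against 30.2 to 34.6% in the 3 closer groups.

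The share with active marks beside them differed with isolation in the other H3K9me2 lists. Of the 660 islands isolated by 5 kb in all 3 lists, 43.6% had H3K56Ac and 39.7% H3K4me3 within 2 kb. Of the other 721, 25.9% and 20.7% did. H3K27me lay on 81.1% and 86.1%. These groups come from H3K9me2 calls and were chosen after the values were seen, so the shares are a description.

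**Figure D5:**
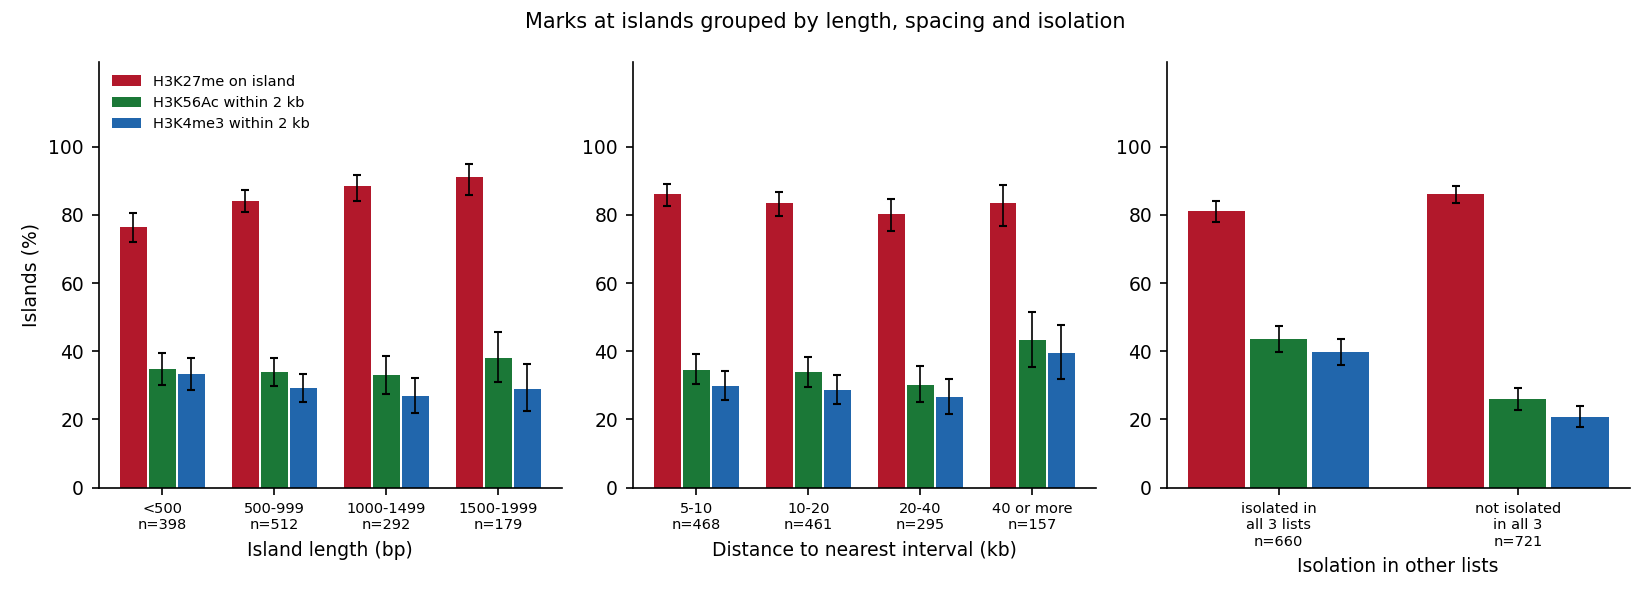
Percent of islands with H3K27me on them, H3K56Ac within 2 kb and H3K4me3 within 2 kb, grouped by island length, distance to the nearest seedling replicate 1 interval and isolation in all 3 H3K9me2 lists; n is the number of islands and error bars are exact 95% binomial intervals. H3K27me runs from 76.4 to 91.1% with length, and H3K56Ac is 43.6% for islands isolated in all 3 lists and 25.9% for the others.

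The 225 islands without H3K27me were shorter, with a median of 587 bp against 803 bp for the 1156 with it. H3K4me3 lay within 2 kb of 39.97 ± 9.57% of islands without H3K27me and 27.3 ± 6.27% of those with it (mean ± SD over 12 chromosomes). The difference, islands with H3K27me minus those without, was -12.6 ± 14.3 points and negative on 9 of 12 chromosomes (exact permutation test, adjusted p = 0.0194), and the call was lost in 5 of 15 alternative settings. Among these, with the same sign, islands drawn without seedling replicate 1 gave -6.97 points (adjusted p = 0.115 in the exact test), and islands drawn without the tillering list gave -8.99 points (adjusted p = 0.105 in the exact test). H3K56Ac lay within 2 kb of 40.9 ± 7.68% and 32.8 ± 6.10%, which did not pass (exact permutation test, adjusted p = 0.0795). Put together, 750 islands (54.3%) had H3K27me on them and no active mark within 2 kb, and 406 (29.4%) had H3K27me and an active mark beside them. A further 104 (7.53%) had an active mark beside them without H3K27me, and 121 (8.76%) had neither. The same shares over all intervals are not given here, so these counts describe the islands only.

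Single islands show the range. They were named by their −log10 q in seedling replicate 1, the highest 3 in each of 4 groups of marks. Among islands with H3K27me the highest was chr2:35930099-35930359, 261 bp long, which ends at the last base of any chromosome 2 peak. Its −log10 q was 30.5 in seedling replicate 1, 35.1 in replicate 2 and 0.759 at tillering, and its fold was 3.44, 3.01 and 1.08. Within each list, its fold was above the median over all intervals in both seedling libraries (2.64 and 2.18) and below it at tillering (1.30). Its pileup, the read depth at the peak, was 137, 190 and 5.74 in the same order, against island medians of 9.88, 18.1 and 8.41. H3K27me covered 88.9% of the island, at a fold of 2.03 against a median of 2.35 over all H3K27me intervals. Reads with several matching sites were placed at random for seedling H3K9me2 and H3K27me, and the setting at tillering is not stated. How far this accounts for the values of this island was not tested.

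The next in that group were less extreme. The island chr8:21636977-21637201 (225 bp) had folds of 4.12, 1.93 and 1.20 in seedling replicate 1, replicate 2 and tillering, and chr7:21337943-21338180 (238 bp) had 3.92, 2.29 and 1.54. Both lay wholly inside H3K27me, in intervals of 2979 and 1991 bp, and had no active mark within 2 kb.

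At 13 islands (0.941%) H3K27me was missing and H3K4me3 stood within 2 kb on both sides, a share not given here for all intervals. The highest, chr9:2493884-2495654 (1771 bp), had H3K4me3 on 8.36% of its length, H3K56Ac 1314 bp away and the nearest H3K27me 6731 bp away. Its H3K9me2 pileup, the read depth at the peak, was 77.4, against a median of 9.88 over the islands, although its fold of 1.62 was below the median. The island chr3:6324412-6325795 (1384 bp) had H3K56Ac at 564 bp and H3K4me3 at 554 bp, both on both sides, and no H3K27me within 9238 bp. At chr12:21211845-21212255 (411 bp) the nearest H3K4me3 was 1869 bp away, with a fold of 6.85, and H3K27me was 178 bp away.

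Of the 13 islands that carried an active mark, 11 had at most 12.1% of their length under either one. H3K4me3 covered 50% or more of 1 island, chr6:9915097-9915658 (52.3% of 562 bp), and H3K56Ac covered 50% or more of 1, chr10:21011312-21011546, a 235 bp island wholly inside a 788 bp H3K56Ac interval of 23.8-fold enrichment. Both of these were chosen after their values were seen. The islands chr5:13556470-13558149 (1680 bp) and chr9:14663781-14665285 (1505 bp) carried all 3 marks: H3K27me on 29.2% and 20.7% of their length, H3K56Ac on 10.4% and 6.38%, and H3K4me3 on 6.79% and 1.26%.

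The remaining group had none of the 3 marks on them or within 2 kb, and held 55 islands (3.98%). The share of such intervals over the whole list is not given here. The highest, chr2:67-764 (698 bp), lay at the first bases of chromosome 2, with −log10 q of 9.63, 16.6 and 42.1 and folds of 2.41, 2.49 and 2.18 in seedling replicate 1, replicate 2 and tillering. Its fold at tillering was above the median of 1.30 over all intervals of that list. That of the island at the far end of the same chromosome was below it, at 1.08. The nearest H3K27me was 18630 bp away. The others were chr8:17987338-17987816 (479 bp, fold 3.51) and chr9:15678416-15679078 (663 bp, fold 3.40), whose folds at tillering were 1.16 and 1.36. Islands with −log10 q of 5 or more in seedling replicate 1 numbered 11, and 4 islands lay within 10 kb of a chromosome's first or last base.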

How the data were processed

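Peaks were called by the authors for each library with MACS2 after alignment with Bowtie, with bedtools also named and no versions stated, per the submitters' processing notes. The deposited lists give each peak's position and, for 5 rice lists, a pileup (signal) and a joined field of −log10 p, fold and −log10 q. The deposited H3K27me list gives −log10 p, fold (a ratio) and −log10 q in separate columns. Peak names in the deposited lists hold Bowtie's random placement of multi-mapped reads for seedling H3K9me2 and H3K27me and unique reads for H3K56Ac. The sources used here state neither this setting for the tillering lists nor any calling threshold. Starts were read as counted from 0 and printed plus 1.

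Overlapping lines were merged with the highest fold and q kept (63555 H3K56Ac lines gave 37429 intervals, and other lists had none to merge). Within 2 kb means at least 1 bp of a peak in the 2 kb on either side, outside the interval. Chromosome lengths were the last base of any peak. Shares and tests over 12 chromosomes (all 4096 sign flips, threshold 0.05) used Python 3.11.15, numpy 2.4.6, pandas 2.3.3 and scipy 1.17.1, and the code was tested on simulated data. Intervals and limits cover counting error only. Islands were named by the highest −log10 q, 3 in each of 4 groups, plus the 2 intervals nearest to 2 kb on each side. The members and groups were chosen with earlier results of these data known. No rice genome or annotation was used, so no sequence or gene is given. Lists of other species were not used.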

Additional observations from a re-analysis of the deposited data

How the results depend on the processing

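Each of 14 differences was computed again under 15 alternative settings, of which 2 (joining H3K9me2 intervals up to 1 kb apart, and isolation in all 3 H3K9me2 lists) were chosen after seeing the data. The differences from clustered short intervals in H3K27me on the interval (-16.8 to -3.04 points) and in H3K27me (-22.4 to -3.63), H3K56Ac (9.70 to 33.7) and H3K4me3 (8.80 to 32.0) within 2 kb kept their direction and call in all 15, as did H3K27me base pairs against long isolated intervals (-34.1 to -11.0). The 2 flank settings cannot alter values on the interval itself. Every setting keeps an isolation limit, so the differences from clustered short intervals within 2 kb remain in part set by the rule. The rest follow in percentage points, and the cause of each change was not tested.

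H3K56Ac on the interval against clustered short intervals was -0.0456 with H3K9me2 −log10 q of at least 2, and -0.0713 to 0.0953 without 1 seedling replicate, where the lower value comes from 0 overlapped islands. H3K4me3 on the interval was -0.157 for lengths under 1 kb, -0.0128 for isolation of 10 kb, 0.728 with −log10 q of at least 2 (adjusted p = 0.0342 in the exact test) and -0.206 in the arms only. Against long isolated intervals, H3K56Ac base pairs were -0.00882 with −log10 q of at least 2, -0.0217 with isolation in all 3 lists and -0.0192 to 0.0352 without 1 replicate. H3K4me3 base pairs were -0.00394 for lengths under 1 kb, 0.144 with −log10 q of at least 2 (adjusted p = 0.0154 in the exact test), -0.0750 in the arms, -0.00363 with isolation in all 3 lists and -0.170 to 0.0547 without 1 replicate.

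Within 2 kb, the H3K27me difference from long isolated intervals no longer passed at -1.71 for lengths under 1 kb, -3.25 with a flank of 1 kb, -1.96 with a flank of 5 kb, -1.41 with −log10 q of at least 2, -3.47 in the arms, -1.46 with isolation in all 3 lists and -2.81 to -2.24 without 1 replicate. The H3K56Ac difference was 2.89 with a flank of 1 kb, 1.06 with an overlap of at least 50%, 2.54 with the 50% of mark peaks of highest −log10 q and 0.146 in the arms, and passed at -3.00 with H3K9me2 −log10 q of at least 2. The H3K4me3 difference passed at 3.55 for lengths under 1 kb and 3.70 with a flank of 1 kb, and was -0.156 with −log10 q of at least 2.

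Between islands with and without H3K27me, the H3K56Ac difference passed at -10.3 with isolation of 3 kb, -12.9 with an overlap of at least 50%, -12.5 with −log10 q of at least 2 and -9.01 with the highest 50% of mark peaks. The H3K4me3 difference no longer passed at -5.88 with isolation of 10 kb, -5.40 with a flank of 1 kb, -8.99 with no overlap with tillering required and -7.40 with isolation in all 3 lists, and was -11.7 to -6.97 without 1 replicate.

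The share of islands with H3K27me was 80.8% for lengths under 1 kb, 69.6% with an overlap of at least 50%, 87.3% with −log10 q of at least 2, 47.6% with the highest 50% of mark peaks and 81.1% with isolation in all 3 lists. Within the flank it was 88.6% at 1 kb, 92.8% at 5 kb, 94.4% with −log10 q of at least 2, 57.1% with the highest 50% of mark peaks, 88.3% with isolation in all 3 lists and 87.4 to 90.5% without 1 replicate. H3K56Ac lay on 0 to 0.271% of islands without 1 replicate. In the flank it was 31.3% with isolation of 3 kb, 16.1% at 1 kb, 67.7% at 5 kb, 22.1% with −log10 q of at least 2, 28.5% with the highest 50% of mark peaks, 43.6% with isolation in all 3 lists and 33.1 to 39.3% without 1 replicate. H3K4me3 lay on 0.107% with an overlap of at least 50% and 0.362% with the highest 50% of mark peaks. In the flank it was 13.4% at 1 kb, 61.0% at 5 kb, 19.9% with −log10 q of at least 2, 20.6% with the highest 50% of mark peaks, 39.7% with isolation in all 3 lists and 28.9 to 34.0% without 1 replicate. The number of islands ran from 660 with isolation in all 3 lists to 1883. With −log10 q of at least 2 the number was 1651, so the shares under that setting are not those of the stronger islands among the 1381.

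No paired analysis was possible because every rice mark other than seedling H3K9me2 has 1 library. Depth is unknown, so a mark below the calling limit of its list cannot be told apart from an absent one.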
